A study of Arabidopsis thaliana with 2 samples.

Results

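The 51 glutathione transferase genes of Arabidopsis thaliana were examined for binding of TGA1-GFP, the bZIP transcription factor TGA1 fused to green fluorescent protein, in roots. Members were the protein-coding genes on the 5 nuclear chromosomes whose symbol or synonym is GSTU, GSTF, GSTL, GSTT, GSTZ or DHAR followed by a number, 51 of 27444 protein-coding genes in the table. Of these, 50 matched by symbol and 1 by synonym (GSTU17, listed as ERD9). ATGSTF13 (AT3G62760), which the table lists only with a prefix, fell outside this rule; its nearest peak midpoint was 3288.5 bp away.

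Chromatin immunoprecipitation with sequencing recovers and sequences the DNA that a protein is cross-linked to. The labels name 1 library made with a GFP antibody and 1 made with IgG, an antibody with no stated target, both from roots of TGA1-GFP plants cross-linked with 1% formaldehyde. The labels do not give the promoter of the fusion, the number of lines, the growth medium or the age of the plants. The data were 1 deposited list of 8002 peaks with chromosome, start and end only, so there was no replicate, no read depth and no height per peak, and no IgG value to set beside any gene. Genes are not replicates of an experiment; counts of genes are therefore given beside the same count over all protein-coding genes, with no test.

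Glutathione transferases join the small thiol glutathione to reactive or foreign molecules, or use it to reduce peroxides and oxidised metabolites. Plants have large tau (GSTU) and phi (GSTF) classes that are known for detoxification of herbicides and other electrophiles and for their induction by chemical stress, salicylic acid and auxin-like compounds. The theta (GSTT), zeta (GSTZ) and lambda (GSTL) classes and the dehydroascorbate reductases (DHAR) are smaller and serve peroxide removal, amino acid breakdown, reduction of conjugates and recycling of ascorbate. TGA factors are known to bind TGACG-type elements, and such elements were described in promoters of several tau and phi genes.

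TGA1-GFP peaks lay at 22 of the 51 glutathione transferase genes, 43.1%, against 24.6% of all protein-coding genes. A gene counted when the midpoint of a peak lay inside it or within 1000 bp of either end; the gene table gives no strand, exons or untranslated regions, so either end could be the start. The 22 genes rested on 21 distinct peaks. In peaks per length of sequence searched (the genes and their 1000 bp flanks, overlaps counted once), the glutathione transferase genes had 13.6 distinct peaks per 100 kb and all protein-coding genes had 6.98 per 100 kb. Glutathione transferase genes were shorter, with a median of 1387 bp against 2078 bp, and had less gene-free sequence on both sides together, with a median of 1246 bp against 1855 bp.

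The members' share stood above that of all protein-coding genes under each of the other rules tried for giving a peak to a gene. For a widest peak of 625 bp or more it stood below, at 3.92% against 6.61%. The members were chosen with earlier results of these data known, so these shares describe this list only. Within 500 bp, 18 members had a peak (35.3%, against 19.1% of all protein-coding genes), and within 2000 bp, 25 had one (49.0%, against 31.8%). Counting midpoints outside the gene alone gave 20 members (39.2%, against 20.5%). Any overlap of a peak with the gene or its flanks gave 22 (43.1%, against 26.7%), and a zone from 1000 bp beyond each gene end to 200 bp within it also gave 22 (against 22.8%). With only the first of 2 equal parts of the list, 15 members had a peak (29.4%, against 13.2%), and with only the wider of 2 equal parts of the peaks, 11 had one (21.6%, against 13.0%).

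Tau and phi genes stood above the 24.6% of all protein-coding genes. The other classes together held 11 genes, too few to place their share at or below it. Among tau genes, 15 of 28 (53.6%) had a peak, and among phi genes 5 of 12 (41.7%). In the other 4 classes together, 2 of 11 genes had one (18.2%). These were 1 of 3 lambda genes, 1 of 3 dehydroascorbate reductase genes, 0 of 3 theta genes and 0 of 2 zeta genes. The theta genes stand next to each other, as do the zeta genes, so the genes within each class are not separate loci. The tau genes had 17.8 distinct peaks per 100 kb, the phi genes 13.3 and the other 4 classes together 5.3, against 6.98 over all protein-coding genes. The order of tau over phi turned round when only the wider of 2 equal parts of the peaks was used. It then gave 6 of 28 tau genes (21.4%) and 4 of 12 phi genes (33.3%), against 13.0% of all protein-coding genes. The other classes hold too few genes for their shares to be read as an order.

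**Figure D1:**
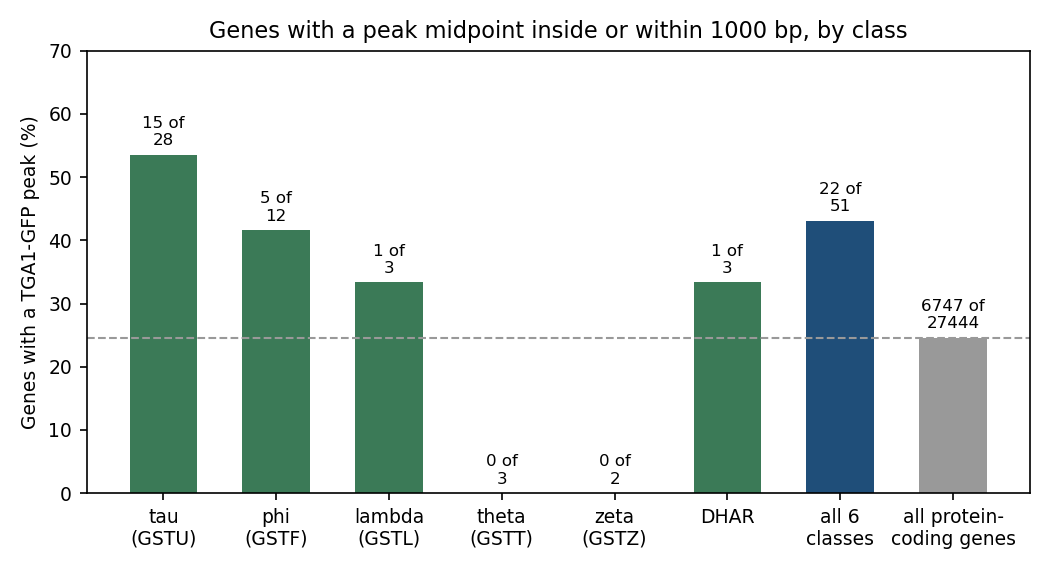
Share of genes with a TGA1-GFP peak midpoint inside or within 1000 bp, in percent, for each class, for all 51 glutathione transferase genes and for all 27444 protein-coding genes (dashed line at 24.6%); the numbers above the bars are genes with a peak of genes in the class. Tau and phi genes stand above the line at 53.6% and 41.7%, and no theta or zeta gene had a peak.

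Many of these genes stand next to each other. With at most 1 other protein-coding gene allowed between neighbours, 34 of the 51 genes fell into 11 tandem arrays, 5 of them with 3 or more members. The arrays held 16 genes with a peak and 13 distinct peaks. Genes in arrays had a peak in 16 of 34 cases (47.1%) and genes standing alone in 6 of 17 (35.3%), against 24.6% of all protein-coding genes. Both had close to the same density, 13.7 and 13.5 distinct peaks per 100 kb, against 6.98 over all protein-coding genes. The arrays were not alike by size. Genes in arrays of 3 or more had a peak in 12 of 22 cases (54.5%), with 16.9 distinct peaks per 100 kb. Genes in pairs had one in 4 of 12 cases (33.3%), with 8.42 per 100 kb. A single peak was within reach of 2 glutathione transferase genes in 4 cases, all in arrays, so neighbouring members do not give separate evidence. Of the 13 peaks in arrays, 4 had their midpoint between members, 2 inside a member and 7 in the outer flank of the array. Of the 23 pairs of neighbouring members, 4 had a midpoint between them.

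The largest array, 7 tau genes on chromosome 2, carried the most peaks. GSTU7 to GSTU1 (chromosome 2, 12617936 to 12632538, TAIR10) held 4 distinct peaks for 5 genes, or 25.9 per 100 kb, against 6.98 over all protein-coding genes. Thus 5 of 7 members had a peak, against 24.6% of all protein-coding genes. Another 3 protein-coding genes, AT2G29430, AT2G29452 and AT2G29485, lie between members of this array. A 453 bp peak at 12632424 to 12632876 had its midpoint 112 bp outside GSTU1 (AT2G29490), at the outer end of the array. At place 561 it stood earliest in the list of all peaks at glutathione transferase genes. It was also within reach of AT2G29500, the next gene.

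A 381 bp peak at 12631210 to 12631590 spanned the 19 bp between the annotated ends of GSTU2 (AT2G29480) and GSTU1. It covered 112 bp of GSTU2 and 250 bp of GSTU1. Its midpoint lay 59 bp inside GSTU1, which was therefore among the 3 members with 2 peaks. AT2G29485 was also within reach of that midpoint. At the other end, a 342 bp peak at 12618810 to 12619151 had its midpoint between GSTU7 (AT2G29420) and GSTU6 (AT2G29440). The midpoint lay 81.5 bp from GSTU7 and 649.5 bp from GSTU6, and the peak covered 90 bp of GSTU7. MTPB1, a metal transporter gene, and AT2G29430 were within reach of the same midpoint. GSTU5 (AT2G29450), an auxin-inducible gene, had a 264 bp peak inside it, 133.5 bp from a gene end; at place 7866 it was the narrowest and the last in the list of the 21 peaks. GSTU4 (AT2G29460) and GSTU3 (AT2G29470), in the middle of the array, had no peak, with nearest midpoints 1941.5 and 1760 bp away.

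The array with the widest peak was that of 5 tau genes near the end of chromosome 1. GSTU23 to GSTU19 (29467412 to 29488007) held 3 distinct peaks for 3 genes, and no peak was shared. Thus 3 of 5 members had a peak, against 24.6% of all protein-coding genes. GSTU19 (AT1G78380), a tau enzyme active on many electrophiles, had a 1052 bp peak at 29487761 to 29488812, place 971, with its midpoint 279.5 bp outside the gene at the outer end of the array. GSTU22 (AT1G78340) had a 404 bp peak, its midpoint 43.5 bp from the gene, in the 7865 bp space before GSTU21. GSTU23 (AT1G78320) had a 283 bp peak 191 bp outside it, late in the list at place 6971. GSTU21 (AT1G78360) and GSTU20 (AT1G78370), which stand between GSTU22 and GSTU19, had no midpoint within 5277.5 and 2897.5 bp.

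All 3 genes of the array GSTU24 to GSTU26 (chromosome 1, 5869543 to 5876620) had a peak, against 24.6% of all protein-coding genes. They rested on 2 distinct peaks. GSTU24 (AT1G17170) and GSTU25 (AT1G17180), whose enzymes are known to act on the explosive trinitrotoluene, shared a 582 bp peak at 5871239 to 5871820, place 924. It lay in the 1140 bp space between them, with its midpoint 646.5 bp from GSTU24 and 494.5 bp from GSTU25, and covered no base of either gene. GSTU26 (AT1G17190) had a separate 413 bp peak with its midpoint 696 bp outside it, on the far side of the array.

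In the phi array GSTF7 to GSTF4 (chromosome 1, 658578 to 666471), 1 of 4 genes had a peak. This was near the 24.6% of all protein-coding genes. The 592 bp peak at 658222 to 658813 had its midpoint 60.5 bp outside GSTF7 (AT1G02920), a gene induced by pathogens. It was also within reach of LPA1, a photosystem II assembly factor. GSTF6 (AT1G02930), which takes part in camalexin synthesis, GSTF5 (AT1G02940) and GSTF4 (AT1G02950) had nearest midpoints 2570.5, 4445.5 and 6601.5 bp away, each of them this same peak. The theta array GSTT1, GSTT3 and GSTT2 (chromosome 5, 16492275 to 16500865) held no peak.

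**Figure D2:**
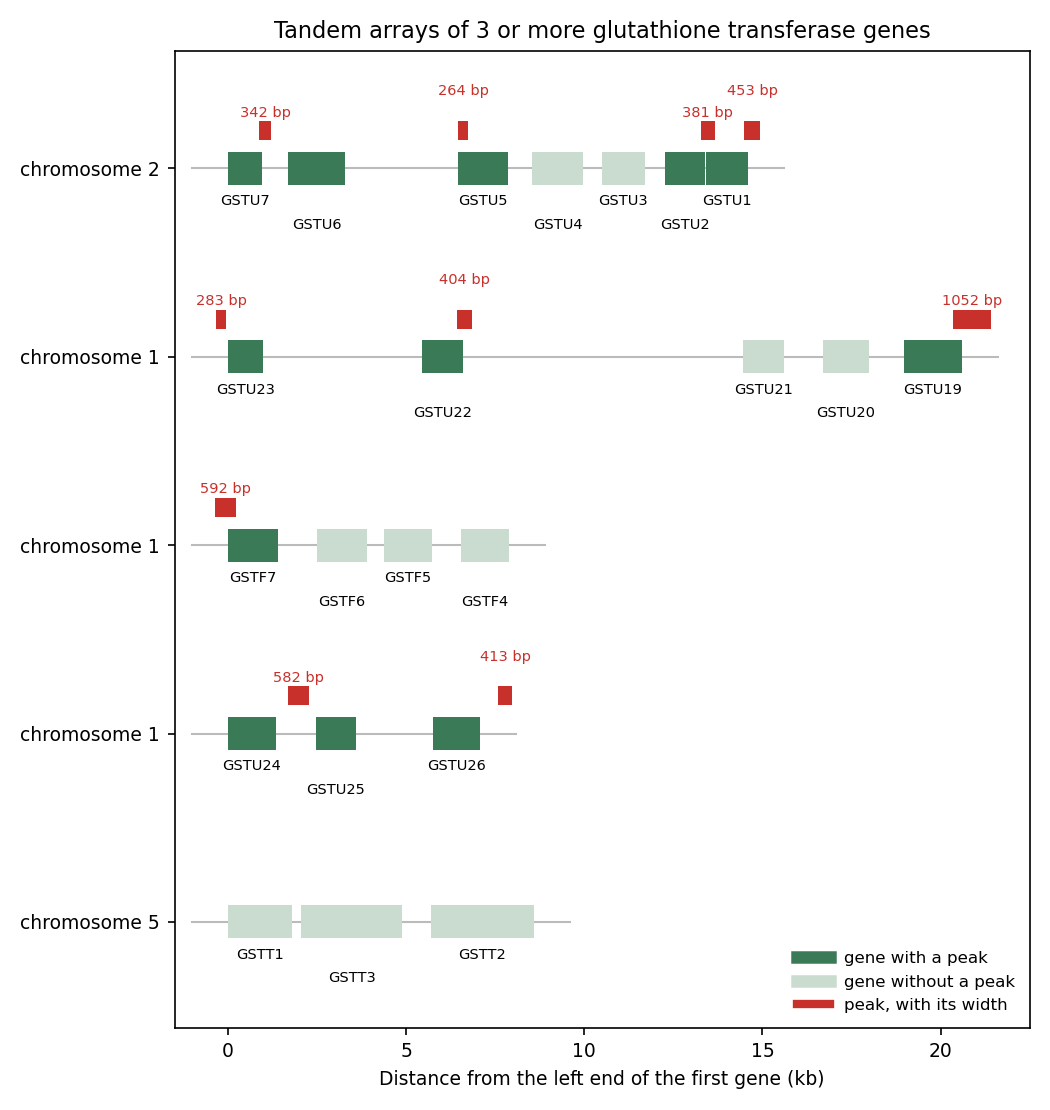
Maps to scale of the 5 arrays with 3 or more members, in kb from the left end of the first gene, with genes with a peak in dark green, genes without in light green and peaks as red bars marked with their width. The array of 7 tau genes on chromosome 2 carries 4 peaks, the arrays of GSTU23 and GSTU24 on chromosome 1 carry 3 and 2, the GSTF7 array 1 and the theta array 0.

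Of the 6 arrays with 2 members, 3 held a peak. GSTF9 (AT2G30860) and GSTF10 (AT2G30870, also called ERD13 for its induction by dehydration) shared a 600 bp peak on chromosome 2 at 13140881 to 13141480, place 1600. The peak had its midpoint in the 897 bp space between them and covered 191 bp of GSTF10. Its midpoint lay 109.5 bp from GSTF10 and 788.5 bp from GSTF9, the longest distance among all pairs of a member and its peak. GSTU14 (AT1G27140) had a 353 bp peak 87 bp outside it, on the side away from its partner GSTU13 (AT1G27130), whose nearest midpoint was 2104 bp away; AT1G27150 was also within reach. GSTL1 (AT5G02780), a lambda gene, had a 755 bp peak on chromosome 5 at 630178 to 630932, the second widest of the 21. Its midpoint was 193 bp outside GSTL1 on the side away from GSTL3 (AT5G02790), and 2241 bp from GSTL3. The pairs GSTU18 and GSTU17, GSTU12 and GSTU11, and GSTZ2 and GSTZ1 had none.

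Among the 17 genes that stand alone, 6 had a peak, on 8 distinct peaks. GSTF8 (AT2G47730), a phi gene known for a promoter element that TGA factors bind, had 2 peaks on chromosome 2. The wider, 502 bp at 19557629 to 19558130, lay inside the annotated gene, centred 1553.5 bp from the closer end, and was also within reach of AT2G47720; the annotated gene is 3160 bp long, the longest of the 51. The other, of 357 bp, had its midpoint 176 bp outside GSTF8 and was also within reach of AT2G47710 and AT2G47720. GSTU8 (AT3G09270) had a 392 bp peak 328.5 bp outside it and a 342 bp peak inside it, which stood at place 7785. AT3G09280 was also within reach of the 392 bp peak.

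GSTU9 (AT5G62480) had a 521 bp peak on chromosome 5 at 25089558 to 25090078, place 608, with its midpoint 192 bp outside the gene. That midpoint was also within reach of HVA22B, a homologue of a stress-induced barley gene. GSTU27 (AT3G43800) had a 437 bp peak 43 bp outside it, also within reach of the zinc-related transporter gene ZIFL2. GSTF2 (AT4G02520), whose protein binds small indolic ligands such as camalexin, had a 282 bp peak 47.5 bp outside it. Its midpoint was within reach of TOC159, a chloroplast protein import receptor gene whose annotation overlaps GSTF2. DHAR2 (AT1G75270), a cytosolic ascorbate-recycling enzyme, had a 327 bp peak, its midpoint 57 bp inside the gene end, within reach of AT1G75280.

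Members with 2 peaks were GSTU1, GSTF8 and GSTU8, 3 of 51 or 5.88%, against 5.24% of all protein-coding genes. A midpoint inside the gene was found at 5 members (9.8%), against 6.68% of all protein-coding genes. These shares were near the background.

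Peaks at glutathione transferase genes were close to the gene. Their median width was near that of peaks at any protein-coding gene, while a smaller share was wide. Of the 20 pairs of a member and a peak with the midpoint outside the gene, the median distance was 183.5 bp (43 to 788.5 bp), against 348.5 bp over the 6378 such pairs of all protein-coding genes. Within 200 bp lay 13 of the 20 (65.0%), against 32.3% over all. Members also had less gene-free flanking sequence (median 1246 bp, against 1855 bp), and its part in this closeness was not tested. A midpoint inside the member was found for 5 of the 21 peaks (23.8%), against 32.6% of the 6200 peaks at any protein-coding gene. Median width was 404 bp for the 21 peaks (quartiles 342 and 521 bp), against 428 bp (quartiles 331 and 609 bp) for peaks at any protein-coding gene.

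The counts of wide peaks and of peaks early in the list were small, so they describe these 21 peaks only. The upper quartile of width over all 8002 peaks was 625 bp, and 2 of the 21 peaks reached it, those of GSTU19 and GSTL1, against 23.7% of peaks at any protein-coding gene. Per gene, this was 2 of 51 members (3.92%) with a widest peak of 625 bp or more, against 6.61% of all protein-coding genes. The first 500 places of the list, which held 5.29% of peaks at any protein-coding gene, held 0 of the 21. The first 1000 places held 4 of the 21 (19.0%), those of GSTU1, GSTU9, GSTU24 with GSTU25, and GSTU19, against 11.4% of peaks at any protein-coding gene, and the first of 2 equal parts of the list held 13 of the 21 (61.9%), against 48.5%. What the order of the list stands for is not given in the sources used here.

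**Figure D3:**
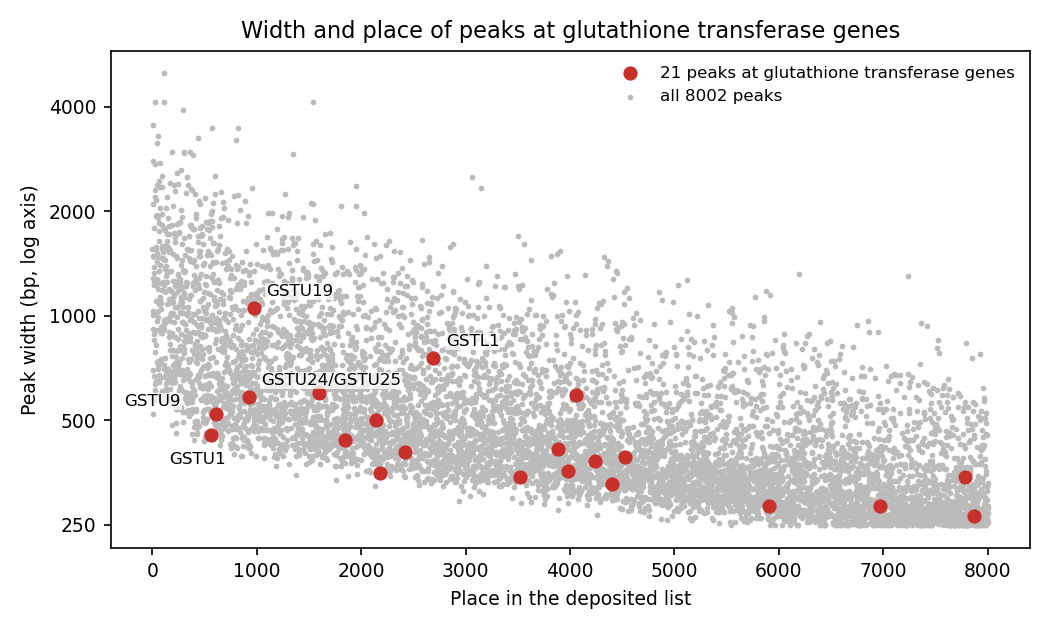
Peak width in bp (log axis) against place in the deposited list for the 21 peaks at glutathione transferase genes (red) and all 8002 peaks (grey). The red points run from place 561 to 7866 and from 264 to 1052 bp, with the GSTU19 and GSTL1 peaks above 625 bp.

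Most of these peaks could not be tied to a single gene by position. Of the 21, 7 were within reach of 1 glutathione transferase gene and no other protein-coding gene. A further 2 were within reach of 2 members and no other gene, and 12 were also within reach of other protein-coding genes. In all, 14 of 21 (66.7%) were within reach of 2 or more genes, against 34.5% of the 6200 peaks at any protein-coding gene. The 9 peaks with no gene outside the family in reach were those of GSTU24 with GSTU25, GSTU26, GSTU23, GSTU22, GSTU19, GSTU5, GSTF9 with GSTF10, GSTL1 and the peak inside GSTU8. Giving each peak to its nearest gene alone left 16 members with a peak (31.4%), against 18.5% of all protein-coding genes.

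The 29 members without a peak ranged widely in distance to the nearest midpoint, with a median of 4445.5 bp. No member had its nearest midpoint between 788.5 and 1403.5 bp, so none lay close to the 1000 bp limit. Just inside it was GSTF9 at 788.5 bp, and just outside it was GSTU11 (AT1G69930), with a 264 bp peak at 1403.5 bp. The next were GSTU3 and GSTU4, already given. A distance over 10000 bp was found for 8 of the 51 members (15.7%), against 30.4% of all protein-coding genes. These 8 were the theta genes, GSTZ2, DHAR3, GSTF14, GSTU15 and GSTU16.

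The 13 tau genes without a peak had nearest midpoints between 1403.5 and 18502.5 bp. Besides those named with the arrays they were GSTU10, GSTU15, GSTU16 and GSTU28. The 7 phi genes without one lay 2570.5 to 18098 bp from a midpoint. They included GSTF12 (AT5G17220), which carries anthocyanins to the vacuole, at 4416.5 bp, GSTF11 (AT3G03190), which acts in glucosinolate synthesis, at 3075.5 bp, GSTF3 (AT2G02930) at 5750 bp and GSTF14 (AT1G49860) at 18098 bp. GSTL2 (AT3G55040) had its nearest midpoint 2222.5 bp away.

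The theta and zeta genes, and the dehydroascorbate reductase genes other than DHAR2, were 7781 bp or more from any midpoint. The theta genes, whose enzymes reduce organic peroxides, had nearest midpoints 24828.5 bp (GSTT1, AT5G41210), 26773.5 bp (GSTT3, AT5G41220) and 23071.5 bp (GSTT2, AT5G41240) away. GSTZ1 (AT2G02390), an isomerase of tyrosine breakdown, and GSTZ2 (AT2G02380) had theirs at 9573.5 and 12062.5 bp. DHAR1 (AT1G19570) had its nearest at 7781 bp, and DHAR3 (AT5G16710), the chloroplast enzyme, at 12335 bp.

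**Figure D4:**
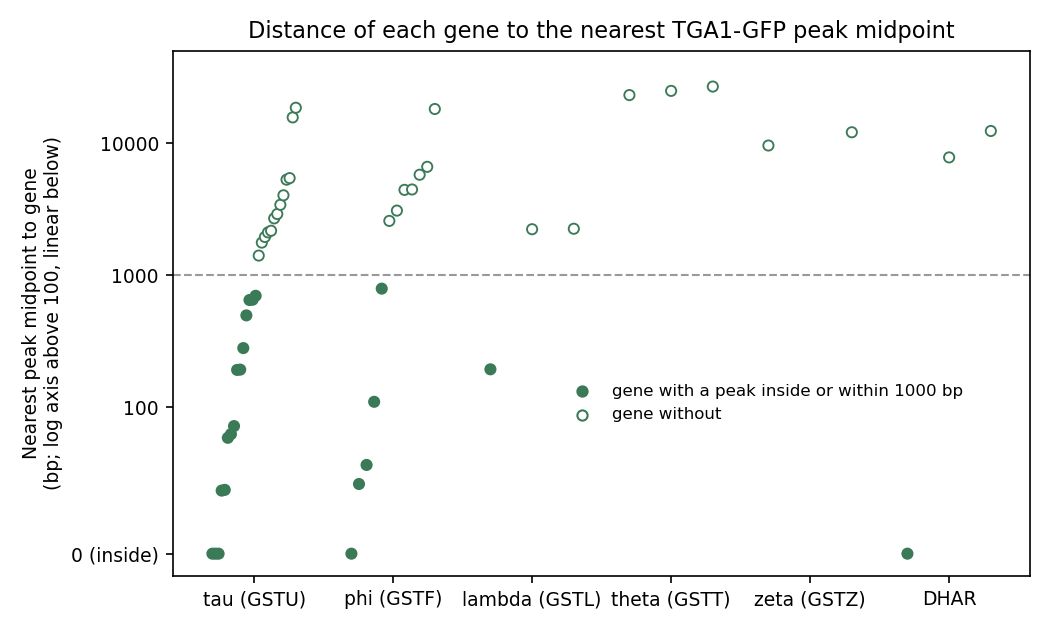
Distance from each of the 51 genes to the nearest TGA1-GFP peak midpoint in bp (log axis above 100 bp, linear below; 0 is inside the gene), by class, with filled points for genes with a peak and open points for genes without. No point falls between 788.5 and 1403.5 bp around the 1000 bp limit (dashed line), and all theta genes lie at 23071.5 bp or more.

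The number of other peaks nearby overlapped between members with and without a peak. Midpoints more than 1000 bp and at most 50 kb from the gene were counted. Members with a peak had a median of 8 (0 to 19) and members without one a median of 9 (1 to 16), against 7 over all protein-coding genes. A gene's own peaks were left out but those of array neighbours were not, which can raise the count at array members without a peak. GSTU27 had 0 and GSTF2 had 1 such midpoint, so their own peaks stood nearly alone. The theta genes had 5 each. Gene-free flanking sequence had a median of 1562.5 bp at members with a peak and 1087 bp at members without; its part in the difference was not tested.

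Genes that supply glutathione and carry its conjugates were also looked at, on a list drawn up with earlier results of these data known. Their share therefore describes this list only. Of 19 genes of glutathione synthesis, reduction, use, breakdown and transport, 13 had a peak (68.4%), against 24.6% of all protein-coding genes. They had 17 distinct peaks, or 15.9 per 100 kb, against 13.6 at the transferase genes and 6.98 over all protein-coding genes. The median width of these peaks was 425 bp, and 12 of the 17 were also within reach of another protein-coding gene. Giving each peak to its nearest gene alone left 10 of the 19 genes with one, against 18.5% of all protein-coding genes. These genes were longer than the transferase genes, with a median of 2600 bp, and their gene-free flanks had a median of 1027 bp. The difference from the transferases was not tested.

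GSH1 (AT4G23100), which catalyses the first step of glutathione synthesis, had a 578 bp peak centred 995.5 bp away, just within the limit. It also had a 511 bp peak with its midpoint inside the gene. GSH2 (AT5G27380), for the second step, had no midpoint within 13497 bp. Both glutathione reductase genes had a peak, against 24.6% of all protein-coding genes. That of GR1 (AT3G24170) was 438 bp wide with its midpoint 27.5 bp outside the gene. That of GR2 (AT3G54660) was 351 bp wide with its midpoint 104 bp outside. Of the 8 glutathione peroxidase genes, 4 had one, against 24.6% of all protein-coding genes. GPX2 (AT2G31570) had 2, of 1325 and 472 bp, the first the widest of the list of 19 genes; GPX6 (AT4G11600) had one of 495 bp, GPX7 (AT4G31870) of 425 bp and GPX1 (AT2G25080) of 322 bp. GPX3, GPX4, GPX5 and GPX8 had none. Another protein-coding gene was also within reach of the peaks of GR1, GPX1, GPX2 and GPX7.

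The 3 ABCC genes on the list all had peaks, against 24.6% of all protein-coding genes. They encode vacuolar transporters that move glutathione conjugates out of the cytosol. ABCC1 (AT1G30400) had 2 of 421 and 295 bp, both also within reach of ABCC12. ABCC3 (AT3G13080) had 2 of 340 and 295 bp, both also within reach of ABCC6. ABCC2 (AT2G34660) had one of 297 bp with its midpoint inside the gene. Of the 3 genes for enzymes that start the breakdown of glutathione and its conjugates, GGT1 and GGT2 had a peak, against 24.6% of all protein-coding genes. The GGT2 (AT4G39650) peak was 692 bp wide. The GGT1 (AT4G39640) peak was 350 bp wide and near the end of the list at place 7979. GGT4 (AT4G29210) had none. PCS1 (AT5G44070), which makes metal-binding phytochelatins from glutathione, had a 479 bp peak 205 bp outside the gene. The peaks of PCS1, GGT1 and GGT2 were each also within reach of another protein-coding gene.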

How the data were processed

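Chromatin was isolated with GFP antibodies or IgG from roots of TGA1-GFP plants, and 100 ng of DNA went into each library, per the labels. Bowtie2, MACS2 and the TAIR10 build are named in the submitters' processing notes; versions, thresholds, the use of the IgG library and the treatment of reads that map equally well to near-identical tandem copies are not recorded there. The deposited list held 3 columns of positions and no other value; depth is unknown, and no interval could be computed. Starts were taken as BED starts, and positions are printed 1-based. Genes came from a RefSeq table of TAIR10.1, whose nuclear chromosomes are those of TAIR10. The midpoint stood for the summit. The members and lists were chosen with earlier results of these data known. Named genes were members with a widest peak of at least 625 bp, with 2 peaks, among the 10 earliest in the list or in arrays of 3 or more, members of classes with 4 or fewer genes, and pathway genes with a peak; the other members and pathway genes named were added after their values were seen. The planned search for TGACG in promoters was not run, since no sequence was used here. Assignment of peaks to genes was tested on simulated data. Python 3.11.15, numpy 2.4.6, pandas 2.3.3 and matplotlib 3.10.9 were used.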

Additional observations from a re-analysis of the deposited data

How the results depend on the processing

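Each count was recomputed under other rules for giving a peak to a gene. The 22 members with a peak also numbered 22 with starts counted from 1 and, an alternative chosen after seeing the data, with ATGSTF13 as a member. In the first of 2 equal parts of the list, members had 13 distinct peaks. A peak was left at 3 of 12 phi, 0 of 3 dehydroascorbate reductase and 7 of 19 pathway genes, against 13.2% of all protein-coding genes. In the wider of 2 equal parts of the peaks, 11 members had one, on 9 distinct peaks of which 6 lay in arrays. That part left 6 of 28 tau, 4 of 12 phi, 0 of 3 dehydroascorbate reductase and 6 of 19 pathway genes, against 13.0% of all protein-coding genes. Midpoints outside the gene only left 0 of 3 dehydroascorbate reductase genes (20.5% of all protein-coding genes). The nearest gene only left 3 of 12 phi genes (18.5% of all protein-coding genes). The other alternatives kept each of these counts within 1.5 times its main value, and theta and zeta genes had 0 under each of the 8 run by class. Taking the nearest peak in place of the widest gave a median width per gene of 408.5 bp, against 425 bp. The cause of these shifts was not tested, beyond fewer peaks being counted. No paired analysis was possible because the series has 1 library per antibody and 1 peak list.

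With no replicate, no depth and no value per peak, the presence of a peak is known for this 1 list only. How reads from near-identical tandem copies were placed is not recorded, so a gene without a peak is not shown to be unbound.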
